A study of Mus musculus with 9 samples.

Results

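The set described here holds 34 genes of the actin cytoskeleton and of smooth muscle contraction that are known targets of the transcription factor SRF (serum response factor) and its cofactors. They were taken from a list written with earlier results of these data known. A gene was kept if it had a probe set assigned to a single gene symbol, and the brightest stood for a gene that had several. All 34 had one, of 19858 genes with such a probe set on the array, and 33 of them were among the 13335 genes bright enough to be tested. The cells were primary cultures grown from the interscapular brown fat of male C57BL/6 mice aged 5 weeks, from a fraction enriched in precursor cells. Each group held 3 cultures, 1 array each: 5 µM of the signalling lipid LPA (lysophosphatidic acid, the 1-oleoyl form) was given to the cultures of arrays 7, 8 and 9, 2.5 µM of HA155, which blocks the LPA-making enzyme autotaxin, to arrays 4, 5 and 6, and the DMSO vehicle to control arrays 1, 2 and 3. All 3 groups received insulin at 50 nM from day 1, 100 nM from day 5 and 200 nM from day 7, and were collected at about day 9. The labels do not settle for how long the cells were exposed: one text puts the compounds during differentiation and another at day 9. Arrays are numbered by subject, and the labels do not say whether a culture pooled several mice. The comparisons ask which genes respond to LPA and to blocking the enzyme that makes it.

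SRF binds a short DNA element called the CArG box and, with different partners, switches on either growth response genes or genes of the actin cytoskeleton. Its partners for the cytoskeletal genes are the myocardin-related factors MRTF-A and MRTF-B, which are held inactive by free actin monomers and released when the small GTPase RhoA drives actin into filaments, and myocardin itself, which is restricted to smooth and cardiac muscle. LPA receptors are known activators of RhoA in many cells. In fat precursors, MRTF and SRF activity is known to oppose the formation of fat cells.

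The CArG box consists of 2 C, 6 letters that are A or T, and 2 G, and reads as a CArG box on both strands. It was searched for in the RefSeq promoter windows of build GRCm38.p6, which run from 250 bases before to 50 after each annotated start. Windows were at hand for 29 of the 34 genes, and 6 of the 29 (20.7%) held a CArG box, against 488 of 27025 genes with a window (1.81%). When at most 1 of the inner letters could be C or G, 9 of the 29 (31.0%) held one, against 11.3% of all genes. The list was drawn up from known SRF targets, so this difference describes the list. Srf itself has a pair of CArG boxes (chr17:46556190-46556269, minus strand), Acta2 a pair with 1 inner C or G each (chr19:34255374-34255482, minus strand), and Myl9 one of each kind (chr2:156775278-156775399, plus strand). Single boxes lie before Cnn2 (chr10:79988519-79988578, plus strand), 1 of the Fhl2 starts (chr1:43163962-43164017, minus strand) and Vcl (chr14:20929148-20929205, plus strand). A further Fhl2 start and Fhl1, which did not pass the test against control, also have a CArG box each, 96 and 102 bases before the start, not shown. Boxes with 1 inner C or G, also not shown, lie 163 bases before Flnc, which rose. Tpm3, which did not pass, has such boxes 66 and 57 bases before different starts. These stretches are shown because they set genes that rose with LPA beside others that did not. They run 5′ to 3′ on the gene's strand and end before the start site, with the boxes in capitals.
Acta2: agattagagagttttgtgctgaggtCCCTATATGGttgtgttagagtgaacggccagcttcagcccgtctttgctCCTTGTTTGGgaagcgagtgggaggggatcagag
Myl9: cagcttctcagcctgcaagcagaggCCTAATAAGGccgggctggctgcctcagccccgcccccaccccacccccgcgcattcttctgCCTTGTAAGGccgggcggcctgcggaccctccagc
Cnn2: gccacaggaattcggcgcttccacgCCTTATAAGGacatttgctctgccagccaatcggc
Fhl2: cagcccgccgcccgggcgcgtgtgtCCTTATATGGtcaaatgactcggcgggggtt
Srf: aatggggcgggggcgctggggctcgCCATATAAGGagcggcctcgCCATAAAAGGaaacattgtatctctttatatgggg
Vcl: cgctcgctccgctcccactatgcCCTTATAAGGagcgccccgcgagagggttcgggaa
Acta2, Myl9, Cnn2 and Fhl2 rose with LPA, while Srf and Vcl did not pass the test against control. The box letters of Cnn2 and Vcl are identical (CCTTATAAGG), 56 and 227 bases before the start. Of the genes that rose with LPA 3 of 14 with a window held a CArG box, and of those that did not pass 3 of 15. With at most 1 inner C or G allowed, 5 of 14 and 4 of 15 held one.

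Values are the deposited array intensities on a linear scale, and changes are differences of log2 intensity. A change was called when its p-value, from limma's moderated test and adjusted over all 13335 genes by the Benjamini-Hochberg method, was below 0.05. With 3 arrays a group, precision is limited by the number of arrays: the median standard error of a log2 change was 0.076. The LPA arrays stood apart from the rest on the first principal component of all genes (19.6 to 28.7, against -15.5 to -7.28 for the other arrays). LPA array 8 was the farthest out. The cultures expressed fat cell genes: the adipokine gene Adipoq read 1405, 1332 and 1296 in LPA cultures, 3835, 3623 and 4069.7 in HA155 cultures and 3322, 3334 and 3660.2 in control cultures. Of the defining brown fat genes, Ucp1 and Dio2 lay below the intensity level for testing (5.59 on the log2 scale, intensity 48.2) in all 3 groups, and Cidea was above it with HA155 only, at a mean log2 intensity of 6.39.

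LPA cultures had higher levels of many of the actin cytoskeleton genes than control cultures, and no tested gene of the set passed as lower. Of 33 tested, 16 rose and 0 fell, where 12.2% of all 13335 genes rose and 10.8% fell, 23.0% in all. The set was chosen with earlier results of these data known, so its contrast with all genes describes the set. At an unadjusted p below 0.05 there were 25, where 34.3% of all genes passed. The risers were the tropomyosins Tpm1 and Tpm2, the calponins Cnn2 and Cnn3, the transgelins Tagln and Tagln2, smooth muscle actin Acta2, myosin genes Myl9 and Myh9, the filament-binding proteins Cald1 and Smtn, the cross-linkers and adhesion proteins Flnc, Actn1 and Zyx, and the LIM-domain proteins Fhl2 and Tgfb1i1. Their log2 changes ran from 0.35 for Myl9 to 0.78 for Tpm1, that is 1.28-fold to 1.71-fold. The median over the 33 genes was 0.28, against 0.0052 over all genes tested. In 19 of the 33 all LPA arrays lay above all control arrays and in 2 below, where 17.5% and 15.6% of all genes did so. Without the filter on dim genes Myocd was also called lower, as described below. The arrays come from whole cultures, so more cells that express a gene and more RNA per cell cannot be told apart.

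**Figure D1:**
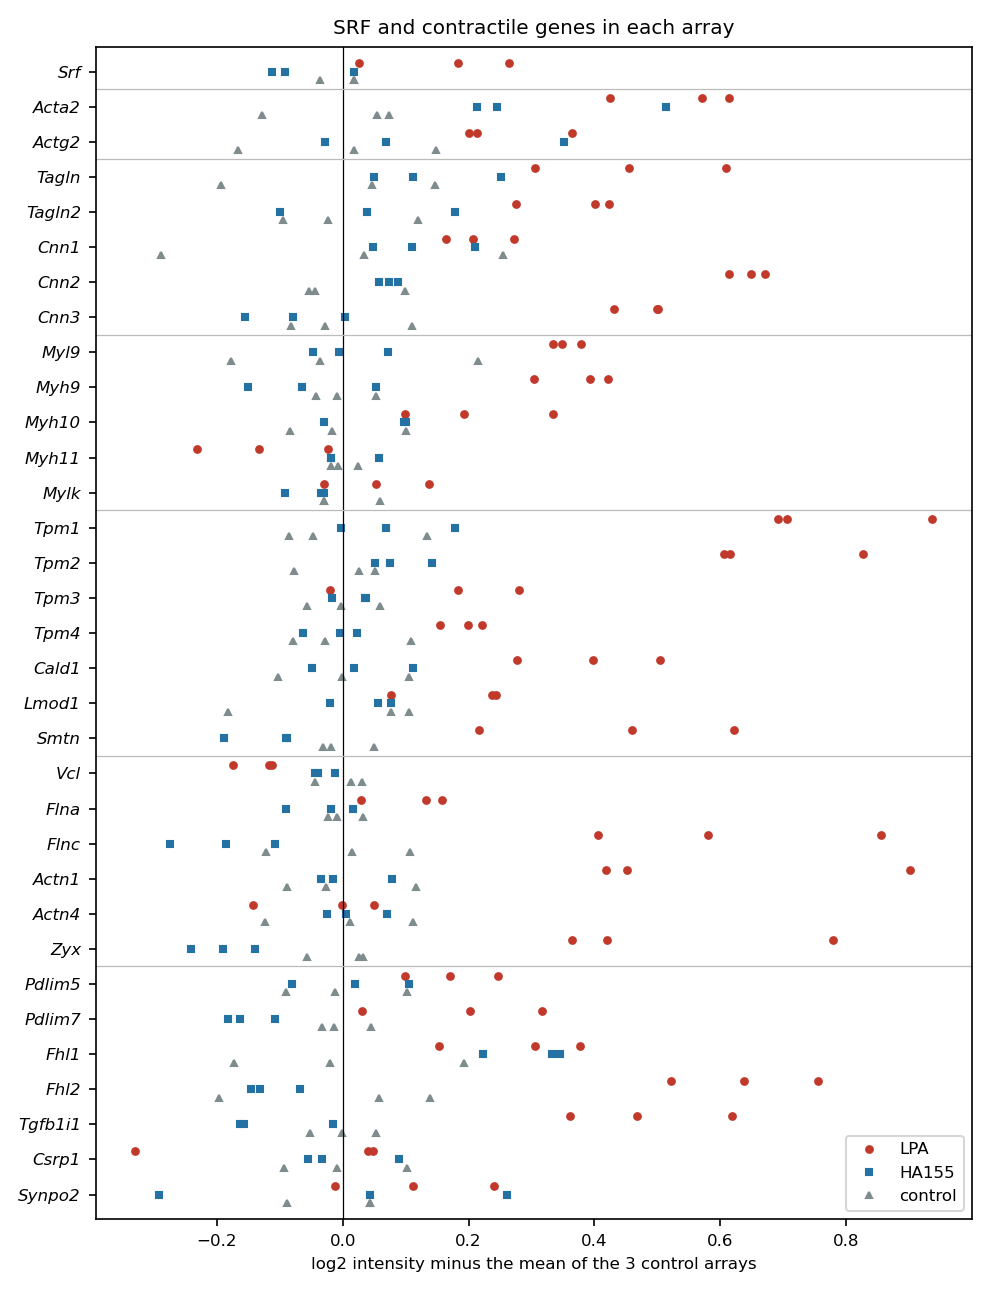
Log2 intensity of the 33 tested genes in each array, as the difference from the mean of the 3 control arrays (x axis), with LPA arrays as circles, HA155 arrays as squares and control arrays as triangles; lines separate the roles. The LPA circles of 19 genes lie to the right of every control triangle, while HA155 squares lie around the control values for most genes.

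Srf, the transcription factor that gives the set its name, had intensities of 183, 204 and 216 in LPA cultures, 182, 166 and 168 in HA155 cultures and 182, 175 and 182 in control cultures. All 3 LPA arrays lay above the control arrays, the lowest by a narrow margin, and the log2 change of 0.16 (SE 0.071, adjusted p = 0.14) did not pass. Without LPA array 7 it did. HA155 array 4 and control arrays 1 and 3 hold the same value in the deposited table. Its myocardin partner Myocd was dim, at 31.1, 34.0 and 33.6 in LPA cultures, 36.4, 36.4 and 36.4 in HA155 cultures and 36.4, 45.4 and 38.6 in control cultures, all below the intensity level for testing. In a fit without that filter its log2 change was -0.28 (limma adjusted p = 0.0445).

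Acta2 encodes smooth muscle alpha-actin, the usual mark of myofibroblasts. Its intensities were 2601, 2282 and 2523 in LPA cultures, 1971, 2427 and 2013 in HA155 cultures and 1789, 1555 and 1765 in control cultures. Every LPA array lay above every control array, and so did every HA155 array. The log2 change with LPA was 0.54 (SE 0.092, adjusted p = 0.00149). Actg2, the gamma-actin of visceral smooth muscle, was dim at 93.9, 83.8 and 84.6 in LPA cultures, 71.6, 93.1 and 76.5 in HA155 cultures and 73.9, 80.9 and 65.0 in control cultures, and its change of 0.26 (SE 0.11, adjusted p = 0.11) did not pass although LPA and control arrays did not overlap. Actin genes are close in sequence, and how far each probe set reads the other actins was not tested.

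Of 5 transgelin and calponin genes 4 rose, where 12.2% of all genes did. Calponins bind actin filaments and restrain myosin. Cnn2, which is found in many cell types, read 935, 973 and 958 in LPA cultures, 643, 636 and 649.6 in HA155 cultures and 654, 589 and 592 in control cultures. The LPA arrays lay close together and far above both other groups, with a log2 change of 0.64 (SE 0.059, adjusted p = 1.96e-05) against control. Cnn3, the acidic calponin, read 1345, 1412 and 1411 in LPA cultures, 945, 999.8 and 896 in HA155 cultures and 978, 943 and 1077 in control cultures, with a change of 0.48 (SE 0.068, adjusted p = 0.000421). Again no LPA array overlapped the other groups. Cnn1, the calponin most restricted to smooth muscle, was dim and overlapped between groups, at 85.4, 92.0 and 87.9 in LPA cultures, 82.3, 88.1 and 78.8 in HA155 cultures and 78.0, 90.9 and 62.4 in control cultures. Its change of 0.21 (SE 0.11, adjusted p = 0.211) did not pass, but did so without control array 2.

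The transgelins are small calponin-related proteins that bundle actin. Tagln (SM22 alpha), an early marker of smooth muscle differentiation, read 568, 632 and 512 in LPA cultures, 448, 493 and 429 in HA155 cultures and 458, 362 and 428 in control cultures. It rose by 0.46 (SE 0.10, adjusted p = 0.00725) on the log2 scale with LPA. Tagln2, the form found outside muscle, read 366, 331 and 361 in LPA cultures, 255, 309 and 281 in HA155 cultures and 297, 256 and 269 in control cultures. It rose by 0.37 (SE 0.084, adjusted p = 0.0086), and in both genes the LPA arrays lay above all others.

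Of 7 tropomyosin and thin filament genes 4 rose, where 12.2% of all genes did. Tropomyosins lie along the actin filament and set which other proteins can bind it. Tpm1 read 1202, 1424 and 1214 in LPA cultures, 781, 842 and 743 in HA155 cultures and 816, 701 and 720.2 in control cultures, and its change with LPA of 0.78 (SE 0.087, adjusted p = 7.58e-05) was the largest of the set. LPA array 8 was its highest, and all LPA arrays were well above the rest. Tpm2 had intensities of 249, 291 and 251 in LPA cultures, 169.9, 181 and 173 in HA155 cultures and 167, 155 and 169.9 in control cultures, with a change of 0.68 (SE 0.072, adjusted p = 5.5e-05). The other tropomyosins did not pass. Tpm4 read 1659, 1738 and 1711 in LPA cultures, 1487, 1515 and 1428 in HA155 cultures and 1607, 1411 and 1462 in control cultures, and its change of 0.19 (SE 0.063, adjusted p = 0.0508) fell just short of the threshold and passed it under 5 of 18 alternative settings. Tpm3 read 2692, 2339 and 2879 in LPA cultures, 2435, 2432 and 2344 in HA155 cultures and 2472, 2368 and 2280.2 in control cultures, with LPA array 8 inside the control range and a change of 0.15 (SE 0.077, adjusted p = 0.205) that passed without array 8. Its 3 dimmer probe sets changed by -0.020, 0.12 and 0.15 with LPA. For each of the 4 tropomyosin genes, the encoded forms depend on splicing, which 1 value per gene does not separate.

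Caldesmon (Cald1), which links myosin and actin and slows their cycling, read 1417, 1658 and 1540.3 in LPA cultures, 1184, 1263 and 1131 in HA155 cultures and 1258, 1168 and 1089 in control cultures. It rose by 0.39 (SE 0.079, adjusted p = 0.00384), with no overlap of LPA and other arrays. Smtn encodes smoothelin, a filament protein of contractile smooth muscle, and read 268, 354 and 317 in LPA cultures, 216, 217 and 202 in HA155 cultures and 238, 228 and 225 in control cultures. Its change was 0.43 (SE 0.091, adjusted p = 0.00503), and LPA array 8 was the highest. Lmod1, leiomodin of smooth muscle, which starts new actin filaments, was dim at 107, 108 and 96.1 in LPA cultures, 94.7, 96.1 and 89.8 in HA155 cultures and 80.3, 98.0 and 96.1 in control cultures, and its change of 0.19 (SE 0.083, adjusted p = 0.142) did not pass.

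Of 5 genes of myosin and its kinase 2 rose, where 12.2% of all genes did. Myl9, the regulatory light chain of smooth muscle and non-muscle myosin, read 412, 408 and 420.4 in LPA cultures, 322, 339.9 and 313 in HA155 cultures and 315, 286 and 375 in control cultures. Its change of 0.35 (SE 0.089, adjusted p = 0.0138) lost the call when control array 2 was left out (limma adjusted p = 0.0558). Myh9, the main non-muscle myosin heavy chain, read 1444, 1567 and 1537 in LPA cultures, 1119, 1213 and 1054 in HA155 cultures and 1213, 1136 and 1162 in control cultures, with a change of 0.37 (SE 0.067, adjusted p = 0.00195). A second, dimmer Myh9 probe set changed by 0.69. Its relative Myh10 read 495, 463 and 545 in LPA cultures, 464, 463 and 424 in HA155 cultures and 464, 427 and 408 in control cultures and changed by 0.21 (SE 0.077, adjusted p = 0.0777), with LPA array 8 inside the control range. It passed without array 8 and after repeated quantile normalization. Myh11, the heavy chain that defines smooth muscle, was dim, at 102, 94.2 and 88.0 in LPA cultures, 107, 102 and 102 in HA155 cultures and 105, 102 and 103 in control cultures. All LPA arrays lay below the control arrays, the highest of them by less than the rounding, and the change of -0.13 (SE 0.064, adjusted p = 0.181) did not pass. Mylk, the kinase that activates the light chain, was also dim and overlapped between groups at 96.2, 102 and 90.8 in LPA cultures, 87.0, 90.8 and 90.5 in HA155 cultures and 90.8, 90.8 and 96.6 in control cultures, with a change of 0.054 (SE 0.062, adjusted p = 0.59).

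**Figure D2:**
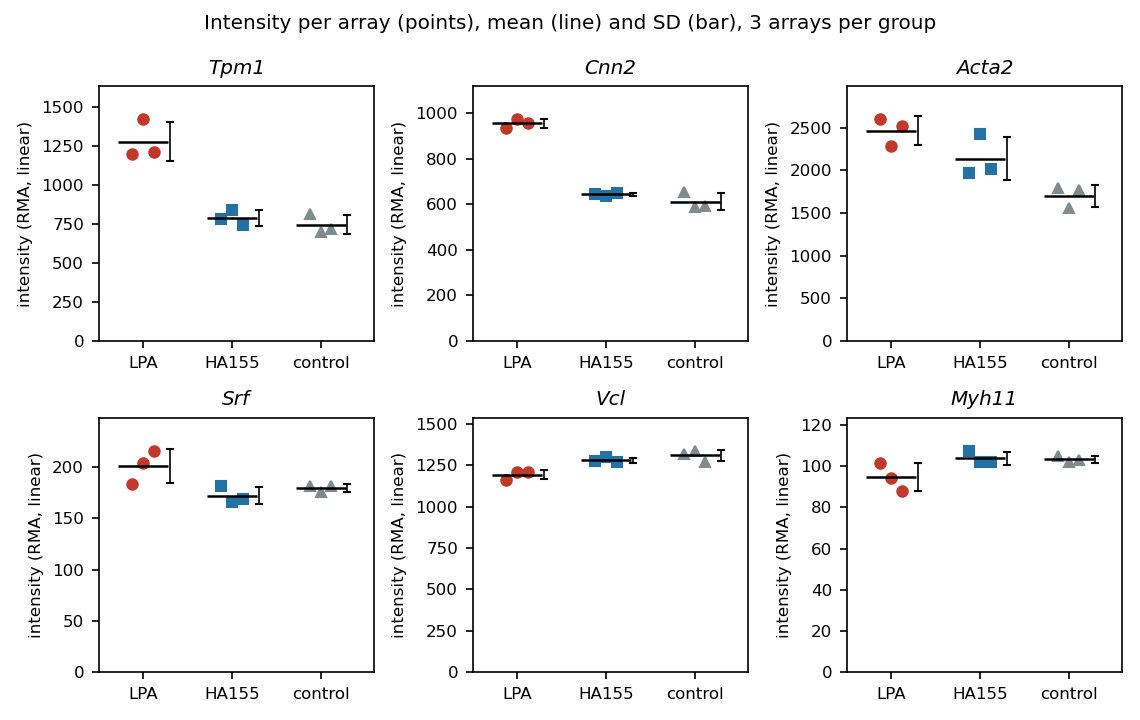
Intensity on the linear scale (y axis, from 0) of 6 genes in each array by group, with LPA left, HA155 in the middle and control right; lines are means and bars SDs of 3 arrays. Every LPA array of Tpm1 and Cnn2 lay above both other groups, Acta2 was above control in every LPA and HA155 array, Srf shifted little, and Vcl and Myh11 lay slightly below control with LPA.

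Of 6 cross-linker and adhesion genes 3 rose, where 12.2% of all genes did. These proteins anchor the filaments to the membrane. Flnc, the filamin of muscle, read 449.9, 615 and 508 in LPA cultures, 299, 315 and 281 in HA155 cultures and 366, 343 and 312 in control cultures. It rose with LPA by 0.61 (SE 0.11, adjusted p = 0.00153), whereas the change of Flna, the widespread filamin, was 0.11 (SE 0.059, adjusted p = 0.235) at 2787, 3046 and 2991 in LPA cultures, 2696, 2762 and 2566 in HA155 cultures and 2792, 2713 and 2686 in control cultures. Actn1, a non-muscle alpha-actinin, read 528, 721 and 516 in LPA cultures, 377, 408 and 382 in HA155 cultures and 418, 363 and 379 in control cultures, with LPA array 8 far above the other LPA arrays. Its change was 0.59 (SE 0.11, adjusted p = 0.00325), while its close relative Actn4 overlapped throughout, at 1845, 1672 and 1910.2 in LPA cultures, 1854, 1937 and 1814 in HA155 cultures and 1995, 1860.0 and 1695 in control cultures, with a change of -0.032 (SE 0.075, adjusted p = 0.812). Zyx encodes zyxin, a sensor of tension at adhesions, and read 562, 748 and 584 in LPA cultures, 396, 382 and 369 in HA155 cultures and 444, 419 and 446 in control cultures. It rose by 0.52 (SE 0.096, adjusted p = 0.00235), again with array 8 highest. Vinculin (Vcl) read 1159, 1209.8 and 1206 in LPA cultures, 1272, 1297 and 1269 in HA155 cultures and 1319, 1337 and 1268 in control cultures. Its LPA arrays were all below the control arrays, and the change of -0.13 (SE 0.053, adjusted p = 0.0974) did not pass; after centring each array on its median it did (limma adjusted p = 0.0442).

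Of 7 LIM and PDZ adaptors 2 rose and 0 fell, where 12.2% of all genes rose and 23.0% were called in all. The 2 calls are near that last share, so their number is not a result about the adaptors. Fhl2, a LIM-only protein that itself binds SRF, read 270.2, 318 and 293 in LPA cultures, 170.3, 172 and 179.6 in HA155 cultures and 196, 164 and 207 in control cultures. Its change with LPA was 0.64 (SE 0.090, adjusted p = 0.000395), with LPA arrays above all others. Tgfb1i1 (Hic-5), a paxillin relative at focal adhesions, read 397, 474 and 427 in LPA cultures, 276, 305 and 277 in HA155 cultures and 298, 309 and 320.2 in control cultures and rose by 0.48 (SE 0.075, adjusted p = 0.000778). The other adaptors did not pass. Fhl1, a LIM-only protein abundant in muscle, read 253, 227 and 266 in LPA cultures, 259.7, 239 and 257 in HA155 cultures and 234, 181 and 202 in control cultures, with a change of 0.28 (SE 0.094, adjusted p = 0.0544) that passed under 4 of 18 alternative settings. Pdlim7 (enigma), which binds tropomyosin and kinases, read 324, 365 and 395 in LPA cultures, 279, 294 and 283 in HA155 cultures and 314, 310.1 and 327 in control cultures, with a change of 0.18 (SE 0.074, adjusted p = 0.103) that passed without LPA array 7. Its relative Pdlim5, the filament-bundling Csrp1 and the actin-binding Synpo2 (myopodin) changed by 0.17, -0.080 and 0.11 (adjusted p = 0.122, 0.622 and 0.559) and overlapped between groups.

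LPA array 8 was the highest of the LPA arrays for 20 of the 33 genes and the lowest for 9. When it was left out, 19 genes rose and 0 fell, and the 16 calls all remained. Over the set, the mean shift from the control mean was 0.27, 0.35 and 0.31 on the log2 scale in LPA arrays 7, 8 and 9, 0.0038, 0.056 and -0.032 in HA155 arrays 4, 5 and 6, and 0.052, -0.038 and -0.015 in control arrays 1, 2 and 3. No LPA array overlapped the others in this mean.

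No gene of the set was called for HA155. By limma 0 of the 33 rose and 0 fell, where 0.607% of all genes rose and 0.427% fell, 1.03% in all, and 2 had an unadjusted p below 0.05, Acta2 and Fhl1, where 8.11% of all genes did. The median log2 change was 0.0072. The Acta2 change with HA155 was 0.32 (SE 0.092, adjusted p = 0.224), with a 95% interval of 0.12 to 0.53. Fhl1 changed by 0.30 (SE 0.094, adjusted p = 0.299), with all HA155 arrays above all control arrays, and was called when arrays were weighted by quality. At the other end Zyx changed by -0.19 (SE 0.096, adjusted p = 0.687) and Flnc by -0.19 (SE 0.11, adjusted p = 0.771). In Zyx, Smtn and Pdlim7 all HA155 arrays lay below all control arrays, and in Acta2, Tpm2 (by less than the rounding) and Fhl1 above. These are 3 of 33 in each direction, where 7.90% and 8.87% of all genes did so. For Tpm1 the interval of the HA155 change was -0.11 to 0.27, and for Cnn2 -0.057 to 0.20. A p above the threshold does not show that the levels were equal.

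LPA was also set directly against HA155, a comparison that shares its LPA arrays with the one above. Of the 33 genes 18 rose and 0 fell, where 13.7% of all genes rose and 12.4% fell, 26.1% in all, and the median change was 0.22, against 0.0054 over all genes. An unadjusted p below 0.05 was reached by 20, where 35.6% of all genes did so. All LPA arrays lay above all HA155 arrays in 19 and below in 2, where 20.5% and 18.2% of all genes did so. Flnc showed the largest difference at 0.80 (SE 0.11, adjusted p = 0.000204), followed by Fhl2 at 0.75 (SE 0.090, adjusted p = 9.95e-05), Zyx at 0.71 (SE 0.096, adjusted p = 0.000238) and Tpm1 at 0.70 (SE 0.087, adjusted p = 0.000132). For Flnc, Fhl2 and Zyx the difference from HA155 was numerically larger than that from control, and their HA155 means lay below their control means. Acta2 differed by 0.21 (SE 0.092, adjusted p = 0.125), which did not pass. HA155 array 5 lay within the LPA range (2601, 2282 and 2523 with LPA, 1971, 2427 and 2013 with HA155), and without it the difference passed. Srf, Tpm4 and Pdlim7 passed here, at 0.22 (SE 0.071, adjusted p = 0.04), 0.21 (SE 0.063, adjusted p = 0.0333) and 0.33 (SE 0.074, adjusted p = 0.00582). Whether the changes against HA155 and against control differ from each other is the HA155 to control difference itself, which passed for none of them. Srf lost its call under 11 of 18 alternative settings (adjusted p up to 0.136), Tagln under 8 (up to 0.147) and Tpm4 under 6 (up to 0.13). The call was also lost for Tagln2 without HA155 array 4 (adjusted p = 0.0697) and Myl9 without HA155 array 6 (adjusted p = 0.0584).

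**Figure D3:**
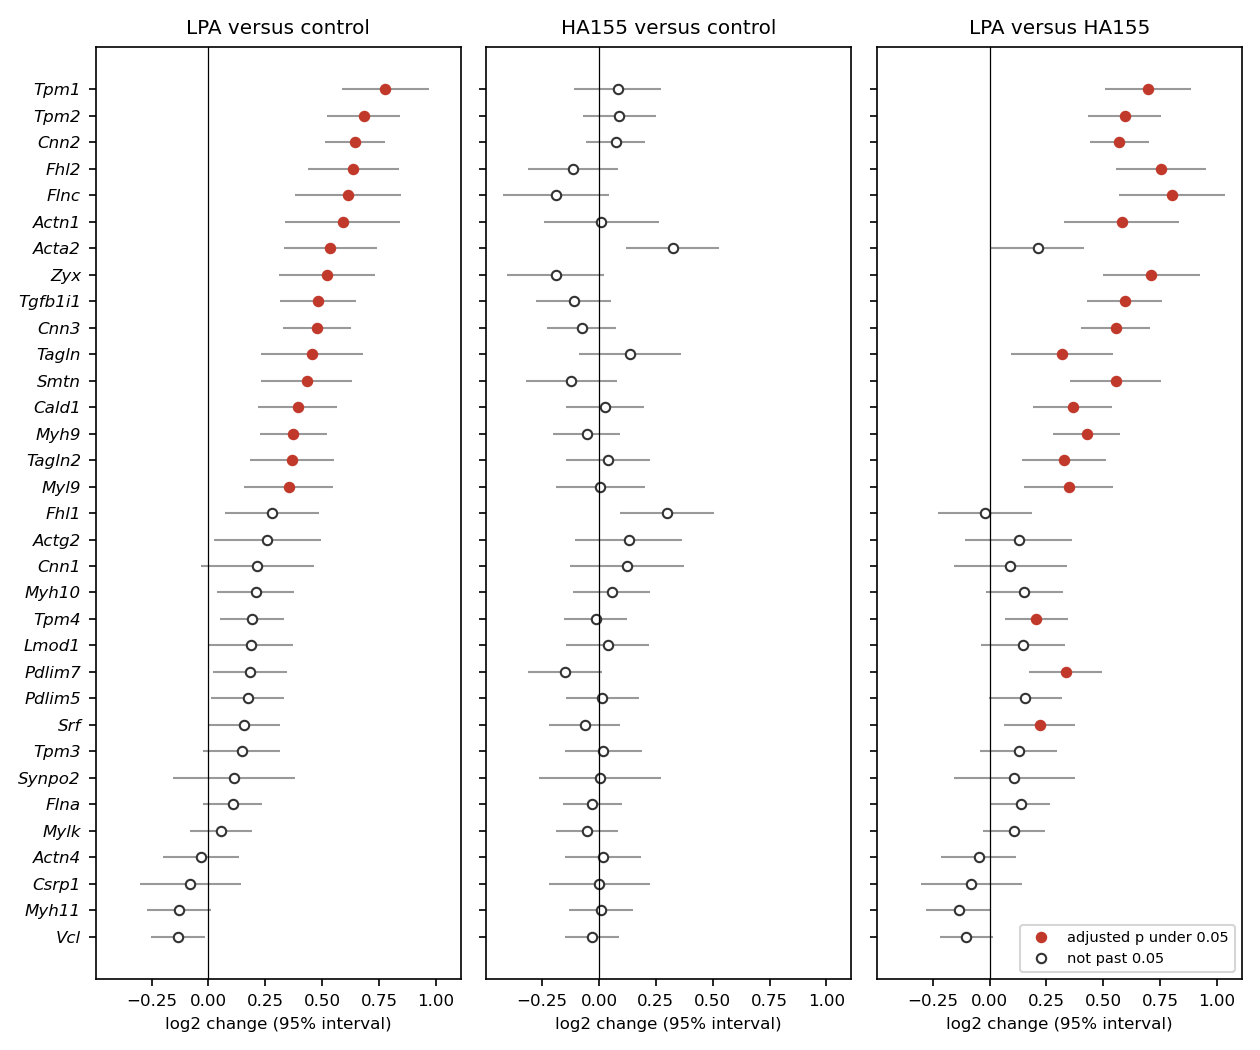
Log2 change with its 95% interval (x axis) of each tested gene in the comparisons LPA versus control, HA155 versus control and LPA versus HA155, ordered by the first; filled points passed an adjusted p of 0.05. The 16 filled points of the first panel lie between 0.35 and 0.78, the second panel has none, and the third has 18.

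Of 33 other tested SRF targets, 17 rose and 0 fell with LPA, where 12.2% of all genes rose and 10.8% fell. Their median change was 0.24, against 0.0052 over all genes. This list too was drawn up with results of these data known. Palld (palladin, an actin cross-linker) rose by 0.73 (SE 0.077, adjusted p = 5.63e-05), the filament-bundling Lima1 by 0.58 (SE 0.054, adjusted p = 2.06e-05), and the fibronectin receptor subunit Itga5 by 0.60 (SE 0.081, adjusted p = 0.000276). Desmin (Des), an intermediate filament protein also counted among the skeletal muscle markers, rose by 0.58 (SE 0.080, adjusted p = 0.000344), plectin (Plec) by 0.49 (SE 0.067, adjusted p = 0.000327), and the collagen receptor subunit Itga1 by 0.51 (SE 0.070, adjusted p = 0.000343). Calls of this list lost under some of the 18 alternative settings were those of Ablim1 (12 settings), Cap1 (10), Pdlim3 (9), Sorbs3 (5), Tln1 (2) and Nexn (2). None of the 33 passed for HA155 by limma, where 1.03% of all genes did. An unadjusted p below 0.05 was reached by 3, near the 8.11% of all genes.

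Upstream of SRF, 6 of 30 tested genes of RhoA, MRTF and actin turnover rose with LPA and 1 fell, where 12.2% of all genes rose and 10.8% fell. The 7 calls in all are near the 23.0% of all genes called, so their number is not a result about this list. At an unadjusted limma p below 0.05 there were 18, where 34.3% of all genes passed. All LPA arrays lay above all control arrays in 14 and below in 3, where 17.5% and 15.6% of all genes did so. The median change was 0.15, against 0.0052 over all genes. This list was also drawn up with earlier results of these data known. The thymosin Tmsb4x, which binds the actin monomers that also bind MRTF, read 606, 703 and 586 in LPA cultures, 402, 445 and 456 in HA155 cultures and 359, 321 and 462 in control cultures and rose by 0.74 (SE 0.12, adjusted p = 0.00107). Elk3, an SRF partner of the other, growth-response branch, rose by 0.51 (SE 0.086, adjusted p = 0.0012), Rnd3 by 0.46 (SE 0.087, adjusted p = 0.00257), and Rhoc by 0.33 (SE 0.064, adjusted p = 0.00306). The thymosin Tmsb10 rose by 0.45 (SE 0.11, adjusted p = 0.0102) and the cofilin kinase Limk1 by 0.26 (SE 0.065, adjusted p = 0.013), the last losing its call without control array 2 or 3. Rhob read 779, 878 and 787 in LPA cultures, 976, 976 and 1033 in HA155 cultures and 1079, 1037 and 1055 in control cultures and changed by -0.38 (SE 0.063, adjusted p = 0.00117), with all LPA arrays below all others. The transcripts of the pathway's core did not pass against control: Rhoa changed by 0.13 (adjusted p = 0.0881), Mrtfa by 0.18 (adjusted p = 0.0862), Mrtfb by 0.12 (adjusted p = 0.2), Rock1 by 0.20 (adjusted p = 0.0706) and beta-actin (Actb) by 0.18 (adjusted p = 0.0671). Actb passed under 3 of 18 alternative settings (1 of them leaving out LPA array 9), Mrtfb without LPA array 8 and Rhoa with a trended robust variance. Against HA155, LPA cultures had higher Mrtfa, by 0.24 (adjusted p = 0.0254), a call lost without LPA array 8 or 9 or HA155 array 4 or 5. None of the 30 passed for HA155 by limma, where 1.03% of all genes did, and 0 had an unadjusted p below 0.05, where 8.11% did.

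Of 14 tested genes of light chain phosphatase and cyclic GMP signalling, the relaxing arm of contraction, 2 rose and 2 fell with LPA against control. Of all genes 12.2% rose and 10.8% fell in that comparison, 23.0% in all, so these counts are again near the shares of all genes. Prkg1, the cyclic GMP-dependent kinase that promotes relaxation, read 196, 205 and 226 in LPA cultures, 133, 152 and 156 in HA155 cultures and 159, 121 and 113 in control cultures and rose by 0.69 (SE 0.12, adjusted p = 0.00162), and the cyclic GMP phosphodiesterase Pde5a by 0.33 (SE 0.068, adjusted p = 0.00474). Gucy1a1 and Gucy1b1, the subunits of the nitric oxide receptor that makes cyclic GMP, changed by -0.52 (SE 0.079, adjusted p = 0.000662) and -0.31 (SE 0.087, adjusted p = 0.0239). Gucy1b1 lost its call under 5 of 18 alternative settings. Gucy1a1 also fell with HA155, with a change of -0.40 (SE 0.079, adjusted p = 0.0407), a call lost under 8 of 18 settings, namely no filter on dim genes and leaving out LPA array 9 or any 1 control or HA155 array. It was the only gene of these pathway lists called for HA155. Against HA155, LPA cultures had 18 rises and 0 falls among the 33 other SRF targets, 8 and 1 among the 30 regulators and 2 and 1 among these 14 genes, where 13.7% of all genes rose and 12.4% fell, 26.1% in all. The calls in all of the last 2 lists were near that share.

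**Figure D4:**
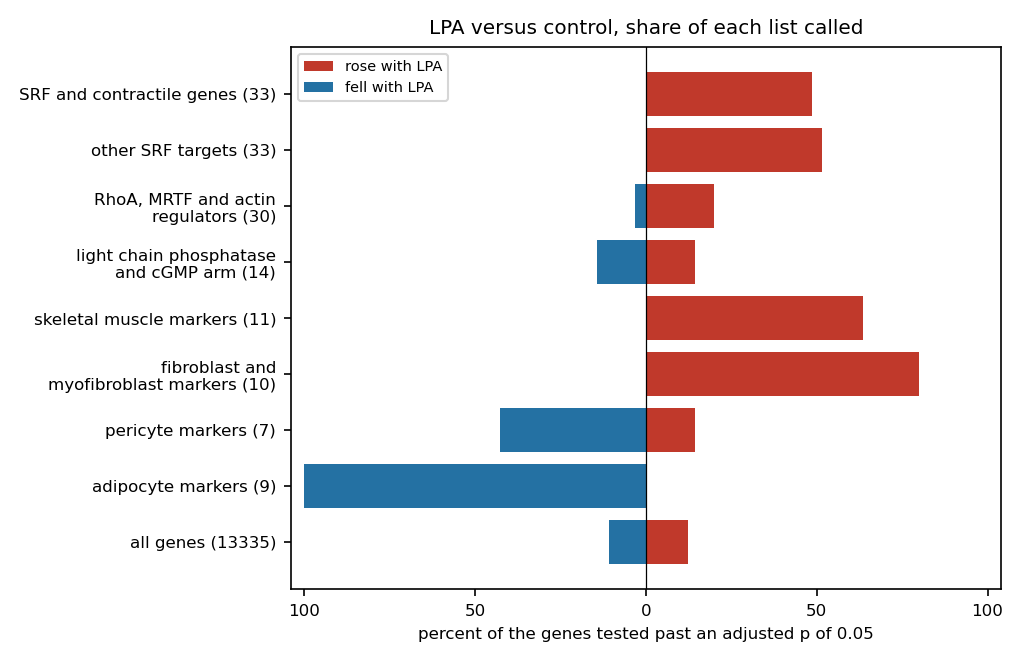
Percent of the tested genes of each list (number in brackets) that rose (right, red) or fell (left, blue) with LPA against control at an adjusted p below 0.05, with all genes tested at the bottom. The SRF lists have rises and no falls (16 and 17 of 33 each), adipocyte markers have falls only (9 of 9), and pericyte markers 3 falls and 1 rise of 7.

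Markers of other cells that carry contractile genes were read beside the set, and their part in the LPA changes was not tested. Beside the counts of each list, 12.2% of all genes rose with LPA and 10.8% fell, 23.0% in all. Of the genes of the set most restricted to smooth muscle Smtn rose, while Myh11, Lmod1, Cnn1 and Actg2, all dim, did not pass and Myocd was below the level for testing. Acta2 and Tagln, which smooth muscle shares with myofibroblasts, rose, as given above. Of 7 tested pericyte markers 1 rose, Abcc9 by 0.35 (adjusted p = 0.00839), and 3 fell, with changes of -0.96 (adjusted p = 1.87e-06) for Mcam, -0.52 (adjusted p = 0.00384) for Vtn and -0.37 (adjusted p = 0.00395) for Notch3. Their summed intensity over 9 markers was 908 to 1002 with LPA, 1059 to 1088 with HA155 and 1180.4 to 1185 in control. The defining pericyte markers Rgs5 and Higd1b lay below the level for testing. Mcam also fell with HA155, with a change of -0.32 (adjusted p = 0.0392), a call lost under 8 of 18 alternative settings. Of 11 tested skeletal muscle markers 7 rose and 0 fell, among them the fast myosin Myh1 by 0.98 (adjusted p = 1.85e-05), Actc1 by 0.76 (adjusted p = 0.000164), Myh3 by 0.73 (adjusted p = 0.000856) and the muscle actin Acta1 by 0.45 (adjusted p = 0.00026), with a summed intensity over 12 markers of 1965 to 2309 with LPA, 1425 to 1574 with HA155 and 1419.6 to 1510.2 in control. Myh1 also rose with HA155, by 0.64 (adjusted p = 0.00695). Their lineage factors were dim: Myod1 had a mean log2 intensity of 6.27 with LPA and 6.30 in control, Myog changed by 0.019 and Pax7 by -0.032, and Myf5 was below the level for testing.

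Fibroblast and myofibroblast markers rose beside the set: 8 of 10 rose with LPA, where 12.2% of all genes did. Their summed intensity was 58092 to 62239.8 with LPA, 43178 to 46781 with HA155 and 46736 to 48499 in control. Cthrc1, a secreted protein of activated fibroblasts, rose by 1.30 (SE 0.12, adjusted p = 2.2e-05), the surface protein Thy1 by 0.76 (adjusted p = 0.000131) and the collagen cross-linking enzyme Lox by 0.67 (adjusted p = 7.97e-05). Adipocyte markers moved the other way, with 9 of 9 lower, where 10.8% of all genes fell. Their summed intensities were 20159 to 21209.7 with LPA, 34499 to 36171 with HA155 and 33225 to 34533 in control. Of 4 tested brown fat markers 3 fell with LPA, among them the mitochondrial subunit genes Cox7a1, with a change of -1.84 (adjusted p = 4.71e-08), and Cox8b, with -1.85 (adjusted p = 4.18e-07). With HA155 these 2 of the 4 rose, by 1.13 (adjusted p = 8.96e-06) and 1.01 (adjusted p = 0.000609), where 0.607% of all genes rose. Ppargc1a and Prdm16 did not pass for HA155, with changes of 0.17 (adjusted p = 0.833) and -0.026 (adjusted p = 0.987). Of 9 tested fat cell markers 2 rose with HA155 and 0 fell, where 0.607% of all genes rose and 0.427% fell. They were Lep, by 0.66 (adjusted p = 0.00257), and Cidec, by 0.65 (adjusted p = 0.000756). The median change of the 9 was 0.012, and 3 had a lower mean than control. No gene of the SRF set was called for HA155. None of 3 tested macrophage markers and none of 3 tested mesothelial markers passed by limma with LPA. In both lists 0 had an unadjusted p below 0.05, where 34.3% of all genes did. Of 4 tested endothelial markers 1 rose, Tek by 0.37 (adjusted p = 0.0014), while Pecam1, Kdr and Emcn lay below the level for testing. This 1 call of 4 is near the 23.0% of all genes called.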

How the data were processed

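Total RNA of 9 primary brown fat cultures was hybridised to Affymetrix mouse arrays, per the labels' protocols. Per the submitters' processing notes the deposited intensities come from RMA, with no version named. RMA corrects background, equalises the arrays' distributions and summarises probes, so a global shift would be removed. The linear scale was read from the values, and array medians ran from 70.7 to 72.8.

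Log2 intensities were used without an offset. Of 35432 probe sets, 21706 carried a single gene symbol; the 1605 with several and the 12121 without an entry in the annotation were left aside. The brightest probe set stood for a gene. Genes with a mean below the 40th percentile of probe sets (6523 of 19858, Myocd among them) were left out; every other gene of the set lay above that level in each group. One limma model (version 3.58.1, R 4.3.3, empirical Bayes, two-sided) held all 9 arrays, with 6 residual degrees of freedom and Benjamini-Hochberg adjustment for each comparison, and was tested on simulated data. An exact test of 3 against 3 cannot go below 0.1. P-values measure the spread between cultures. No batch is named, and one that followed the treatments could not be told apart from them. Each array's value is given for genes of the set called in any comparison and for the smooth muscle genes. Of each other list, up to 6 called genes of smallest p for LPA and for HA155 could be named. The per-array values of other genes of the set, and Rhoa, Mrtfa, Mrtfb, Rock1, Actb, the markers not called and the genes that lost a call, were added after their values were seen. The set and the lists were chosen with earlier results of these data known. Promoter windows came from RefSeq (GRCm38.p6).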

Additional observations from a re-analysis of the deposited data

How the results depend on the processing

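No paired analysis was possible because the subject numbers differ between the groups. Results were recomputed under 18 alternatives: other filters on dim genes, the mean of all probe sets, an offset of 16, repeated quantile normalization, median centring, a trended robust variance, array weights, only the 2 groups compared, and each of 9 arrays left out. With LPA against control, the number of genes of the set that rose was 16 to 18 under the settings that keep all arrays and 16 to 19 with 1 array left out. The number that fell stayed at 0 except for 1 gene without the filter (Myocd) and 1 with centred arrays (Vcl). The other pathway lists (33, 30 and 14 genes tested) held 28 calls, 23 to 33 with all arrays and 20 to 30 with 1 left out. Of the 28 calls 17 were other SRF targets, and 23.0% of all genes were called. Calls over all genes also moved, from 3066 to 2296 without control array 2 and to 3224 with repeated quantile normalization. Of the 16 calls of the set 15 held under all 18 (Myl9 did not) and 8 of the 17 other genes passed under at least 1. The median change was 0.25 (centred arrays) to 0.35 (array weights) under the settings that keep all arrays and 0.27 to 0.34 with 1 array left out. With HA155 against control 0 genes passed, apart from 1 (Fhl1) with array weights. The pathway lists held 1 call for HA155, where 1.03% of all genes were called, and 0 without the filter, 3 with array weights and 0 to 1 with 1 array left out. It was 0 when LPA array 9 or any 1 HA155 or control array was left out. For LPA against HA155 the number that rose was 15 to 18 with all arrays and 14 to 17 with 1 left out, and 13 of 18 calls held under all 18 alternatives. With 1 array left out the median change was 0.20 to 0.31 and the pathway lists held 19 to 31 calls, against 30 with all arrays. The 19 came without HA155 array 4. Of all genes 26.1% were called for LPA against HA155 with all arrays. No call changed its sign in these fits. Centring moved the median of all genes by under 0.1. The table has no detection calls, so signal over background is unknown for dim genes of the set such as Myocd, Actg2, Cnn1, Lmod1, Myh11, Mylk and Synpo2. The cause of these differences was not tested.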
